A study of Arabidopsis thaliana with 72 samples.

Results

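The plastid genome encodes, besides the photosystems and Rubisco, much of the machinery that expresses it. Described here are its genes for RNA polymerase, ribosomal proteins, splicing, proteolysis, lipid synthesis and protein assembly. Of 32 genes named for this set, 24 had a probe set that the platform table ties to 1 gene of the plastid genome, out of 63 plastid-encoded genes with such a probe set. The 24 were all 4 RNA polymerase genes, 7 of 10 genes for proteins of the small ribosomal subunit, 6 of 9 for the large subunit, matK and clpP, the trio accD, ccsA and cemA, and 2 of 4 ycf genes (ycf3 and ycf4). Another 6 genes (rps7, rps12, rpl2, rpl23, ycf1 and ycf2) were read by probe sets that list both copies of the inverted repeat and are given apart, and rps3 and rpl22 had no probe set used here.

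The study followed RNA over the day in cotyledons of Arabidopsis seedlings of the wild type Col-0, which had been raised on medium of Murashige and Skoog holding 0.5% sucrose. Long days had 16 h of light and 8 h of dark, and short days had 8 h of light and 16 h of dark. From each day length came whole leaf, mesophyll (the photosynthetic cells of the blade) and vasculature (the veins), and mesophyll and vasculature were separated from each other with enzymes and sonication. Each of the 6 groups held 12 arrays, 1 at each of 6 Zeitgeber times (ZT, hours after lights on) 4 h apart on day 9 and 1 at each on day 10. Nothing in the labels calls the arrays of the 2 days separate cultures, and the p-values below therefore speak of the spread among these arrays alone.

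Plastid genes are transcribed by a bacterial-type polymerase built from the 4 plastid-encoded rpo subunits and started by nuclear-encoded sigma factors, and by phage-type polymerases encoded wholly in the nucleus. Photosynthesis genes depend mostly on the plastid-encoded enzyme, whereas the rpoB cluster and accD are known targets of the nuclear-encoded ones. Many plastid genes lie in clusters copied into shared transcripts, and plastid ribosomes combine plastid-encoded proteins with nuclear-encoded ones.

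All 24 genes were bright, with mean percentiles on the arrays from 96.8 to 99.9 within groups. Intensities of different probe sets cannot be ranked against each other, so levels are compared only between groups of the same gene, on the log2(intensity + 1) scale. In 3 measured mesophyll markers (LHCB4.1, PRK and SBPASE) vein levels lay below mesophyll levels in both day lengths, with PRK at 8.68 in mesophyll and 6.14 in vasculature in long days. The 4 measured phloem markers SWEET11, OPS, CLE26 and CLE41 and the xylem marker LHW ran the other way, with CLE26 at 2.07 in mesophyll and 8.34 in vasculature in long days. The guard cell markers FMA and BLUS1 were at 2.27 or lower in both isolated tissues and at 2.97 or higher in whole leaf. The epidermis marker FDH was higher in veins than in mesophyll in both day lengths, at 7.71 against 6.77 in long days and 7.67 against 6.30 in short days, and its part in the vein-to-mesophyll differences below was not tested.

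The array of long day whole leaf at ZT0 on day 10 stood apart. All 24 genes were lower on it than on the day 9 array of the same time, by a median of 0.70, and rpl32 read 6.86 against 10.90 and rps16 6.72 against 10.01. Its mean intensity was 54.2, against 67.8 or higher on the other long day whole leaf arrays, and values without it stand beside the main results that use long day whole leaf. In short day mesophyll the 2 days differed: 16 of 24 genes were lower on day 10 at 5 or 6 of the 6 times. There 7 genes passed an adjusted p of 0.05 for a lower level on day 10, against 2.06% of all probe sets, with rps18 at -0.46 ± 0.07 (SE, adjusted p = 0.015) and rpoC2 at -0.44 ± 0.08 (adjusted p = 0.023).

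**Figure D1:**
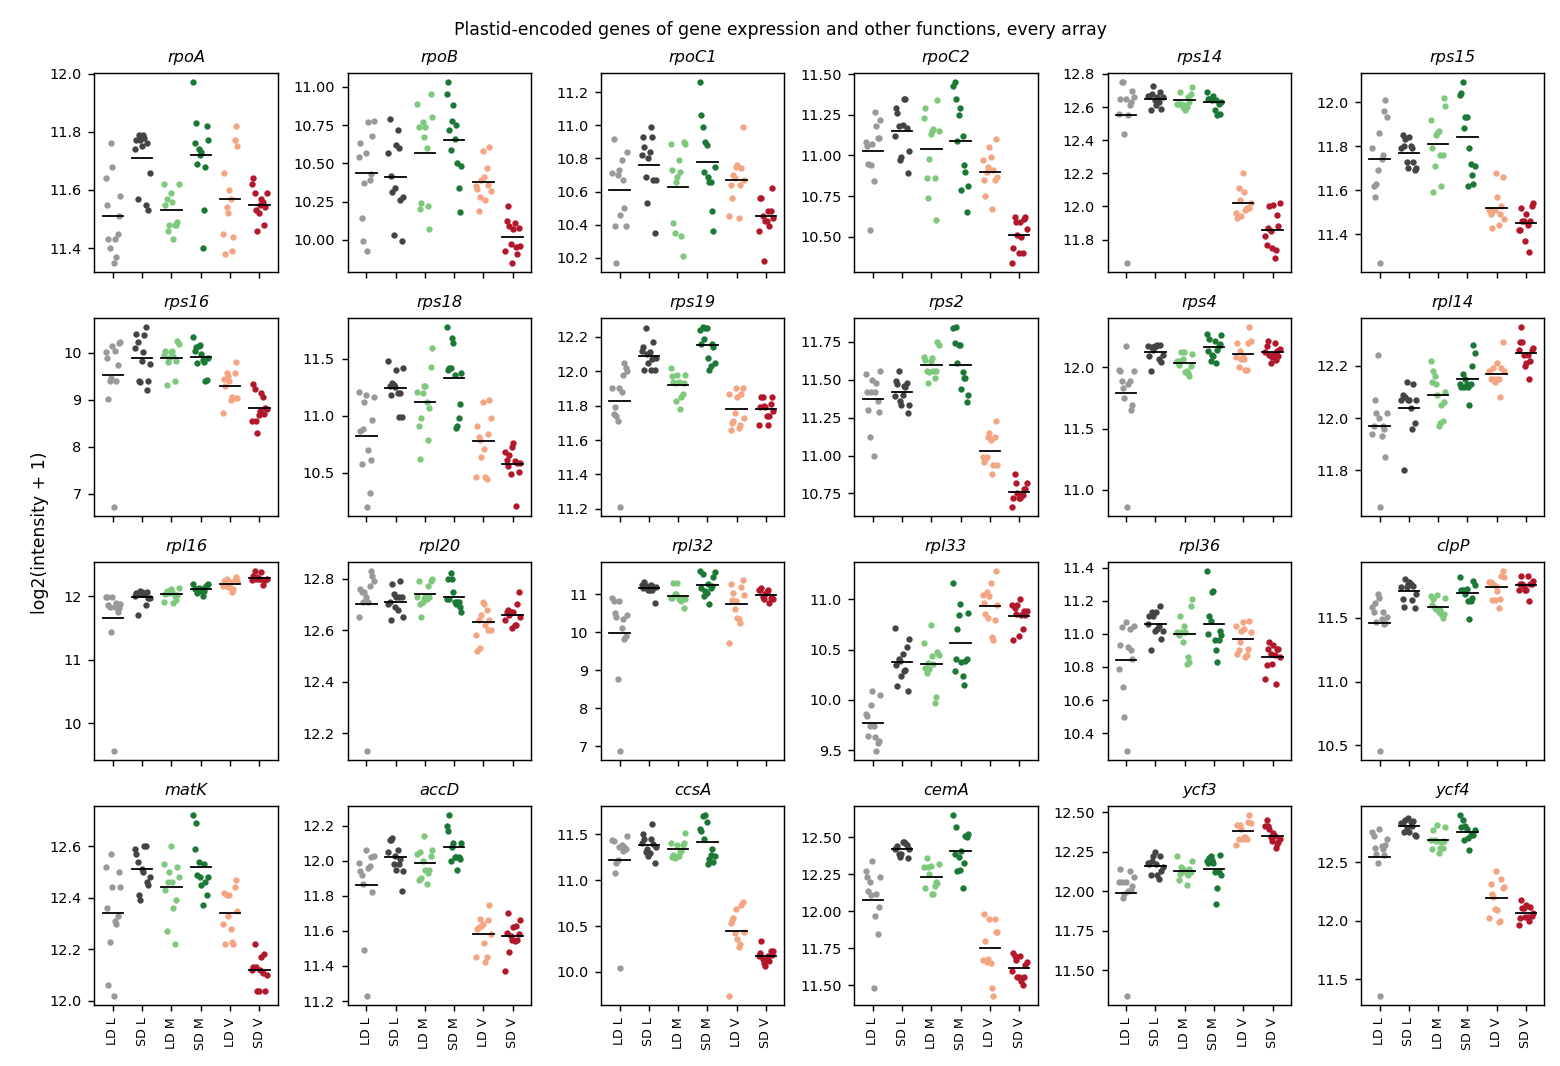
Log2(intensity + 1) of the 24 plastid-encoded genes on every array, 1 panel per gene with its own vertical range; points are arrays, with the 6 of day 9 to the left of the 6 of day 10 in each group, and lines are group means (L whole leaf, M mesophyll, V vasculature; LD long days, SD short days). The low point of long day whole leaf in most panels is the day 10 array of ZT0, for example rpl32 at 6.86, and ccsA, rps14 and ycf4 sit lower in both vein groups than in both mesophyll groups.

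The groups differed little for most genes. Short day mesophyll had the highest group mean for 13 of the 24, and short day vasculature had the lowest mean for 13 and long day whole leaf for 9; without the stray array these counts were 13, 14 and 8. Within groups the median SD over the 24 genes ran from 0.07 in short day vasculature to 0.24 in long day whole leaf, the group with the stray array. The range of group means was 1.25 both for ccsA, from short day mesophyll down to short day vasculature, and for rpl32, whose lowest mean was that of long day whole leaf. Without the stray array the rpl32 range was 0.97.

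Veins were compared with mesophyll within each day length, averaging the 6 times. In long days none of the 24 genes passed the call used here, an adjusted p under 0.05 with a difference of at least 1, although 18 had an unadjusted limma p under 0.05; 25.5% of all probe sets passed the call. At an adjusted p under 0.05 alone, 13 genes were lower and 4 higher in vasculature, beside 34.7% and 38.5% of all probe sets, and the median difference was -0.14 where that of all probe sets was 0. In the short day comparison ccsA and rps16 passed the call as lower, beside 12.6% of all probe sets, and at an adjusted p alone 17 genes were lower and 4 higher, beside 34.6% and 38.9%, with a median of -0.38. In bulk tissue, fewer plastid-rich cells and less of a transcript per cell cannot be told apart.

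Among the polymerase subunits, none passed an adjusted p of 0.05 as higher in veins, and all 4 did so as lower in short days, 2 of them also in long days. The rpoB gene, for the beta subunit, ran from 10.18 through a median of 10.69 to 11.03 in short day mesophyll and from 9.85 through 10.02 to 10.22 in short day vasculature. The vein arrays were the lower ones and overlapped mesophyll only at its lowest end. The difference was -0.63 ± 0.08 (adjusted p = 2.4e-06), 1.55-fold lower, in short days and -0.19 ± 0.06 (adjusted p = 0.005) in long days. Its neighbours behaved alike in short days: rpoC2, for the beta double prime subunit, differed by -0.58 ± 0.10 (adjusted p = 5.1e-05) with no overlap of arrays, and rpoC1, for the beta prime subunit, by -0.34 ± 0.09 (adjusted p = 0.0027). In long days rpoC2 differed by -0.14 ± 0.05 (adjusted p = 0.03) and rpoC1 by 0.04 ± 0.06 (adjusted p = 0.59). The alpha subunit gene rpoA, which lies elsewhere in the plastid genome, gave -0.17 ± 0.05 (adjusted p = 0.01) in short days and 0.05 ± 0.05 (adjusted p = 0.43) in long days.

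Genes for proteins of the small ribosomal subunit were lower in veins for 6 of the 7 in each day length at an adjusted p under 0.05, with medians of -0.34 in long days and -0.75 in short days. The exception, rps4, gave 0.08 ± 0.05 (adjusted p = 0.15) and -0.04 ± 0.04 (adjusted p = 0.43). The largest difference was that of rps16, which ran from 9.40 through 9.94 to 10.33 in short day mesophyll and from 8.30 through 8.78 to 9.33 in short day vasculature. Every vein array was below every mesophyll array, and the gene was 2.12-fold lower (-1.08 ± 0.09, adjusted p = 3.3e-08). It fell under the minimum difference of 1 after quantile normalization (-0.84) and without the day 9 arrays of short day mesophyll (-0.90).

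In long days rps16 ran from 9.32 through 9.95 to 10.25 in mesophyll and from 8.73 through 9.35 to 9.81 in vasculature. These arrays overlapped, and the difference was -0.60 ± 0.07 (adjusted p = 5.4e-07). Steadier across arrays was rps14, whose long day mesophyll arrays lay between 12.58 and 12.72 and vein arrays between 11.93 and 12.20. It was 1.53-fold lower in veins in long days (-0.62 ± 0.04, adjusted p = 6.7e-10) and 1.70-fold lower in short days (-0.77 ± 0.04, adjusted p = 1.8e-10). Neither these 2 groups nor those of rps2 overlapped in either day length, and rps2 differed by -0.57 ± 0.05 (adjusted p = 5.6e-09) and -0.84 ± 0.07 (adjusted p = 9.7e-09). The other 3 small-subunit genes with lower vein levels, rps15, rps18 and rps19, ranged from -0.14 to -0.34 in long days and from -0.37 to -0.75 in short days.

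The large-subunit genes with a probe set of 1 gene did not share this direction. Given apart below, rpl2 and rpl23 were both below 0 in each day length. The difference between the subunit classes was not tested. The median of the 6 genes was 0.03 (long days) or 0.01 (short days), and an adjusted p under 0.05 was reached by 2 higher genes and 1 lower one in long days and by 3 and 2 in short days. The gene furthest up was rpl33, whose protein is known in tobacco to be dispensable under standard growth. In long days rpl33 ran from 9.97 through 10.36 to 10.74 in mesophyll and from 10.59 through 10.95 to 11.28 in vasculature. The vein arrays were higher with a small overlap, by 0.57 ± 0.08 (adjusted p = 2.7e-06), and at all 6 times. In short days the rpl33 difference was 0.27 ± 0.09 (adjusted p = 0.011), at 5 of 6 times. The neighbouring genes rpl14 and rpl16 were within 0.17 of 0, with rpl16 higher in veins at 0.17 ± 0.05 (adjusted p = 0.0029) in long days and 0.17 ± 0.04 (adjusted p = 0.0014) in short days. Lower values were those of rpl32, at -0.25 ± 0.09 (adjusted p = 0.016), and rpl36, at -0.21 ± 0.06 (adjusted p = 0.0068), both in short days.

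Of the remaining genes, ccsA had the largest difference in both day lengths. Its product attaches haem to c-type cytochromes of the thylakoid. In long days ccsA ran from 11.24 through 11.32 to 11.52 in mesophyll and from 9.74 through 10.48 to 10.76 in vasculature. In short days it ran from 11.18 through 11.40 to 11.71 and from 10.07 through 10.17 to 10.34. All vein arrays lay below all mesophyll arrays in both, 1.85-fold lower in long days (-0.89 ± 0.08, adjusted p = 9.1e-09) and 2.38-fold lower in short days (-1.25 ± 0.08, adjusted p = 5.6e-10).

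The envelope protein gene cemA differed by -0.49 ± 0.07 (adjusted p = 3.9e-06) in long days and -0.80 ± 0.06 (adjusted p = 3.2e-09) in short days. For accD, which encodes a subunit of the plastid acetyl-CoA carboxylase that starts fatty acid synthesis, the differences were -0.40 ± 0.05 (adjusted p = 3.3e-07) and -0.51 ± 0.05 (adjusted p = 1e-07). No arrays of the compared groups overlapped for cemA or accD in either day length. The 2 photosystem I assembly factors went opposite ways: ycf4 was lower in veins (-0.49 ± 0.05 in long days, adjusted p = 1.7e-07; -0.69 ± 0.04 in short days, adjusted p = 6.1e-10) and ycf3 was higher (0.25 ± 0.04, adjusted p = 2.7e-05; 0.21 ± 0.04, adjusted p = 0.00043). Neither gene's vein and mesophyll arrays overlapped in either day length.

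The intron maturase gene matK gave -0.10 ± 0.04 (adjusted p = 0.06) in long days and -0.40 ± 0.05 (adjusted p = 7.3e-07) in short days, where its groups did not overlap. For clpP, the plastid-encoded proteolytic subunit of the Clp protease, the values were 0.15 ± 0.05 (adjusted p = 0.0085) and 0.06 ± 0.04 (adjusted p = 0.23). Across all 24 genes, the arrays of the 2 tissues did not overlap for 6 lower genes and 1 higher gene in long days, where 26% of all probe sets did not overlap in either direction, and for 12 lower genes and 1 higher gene in short days, where 26.5% did not.

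**Figure D2:**
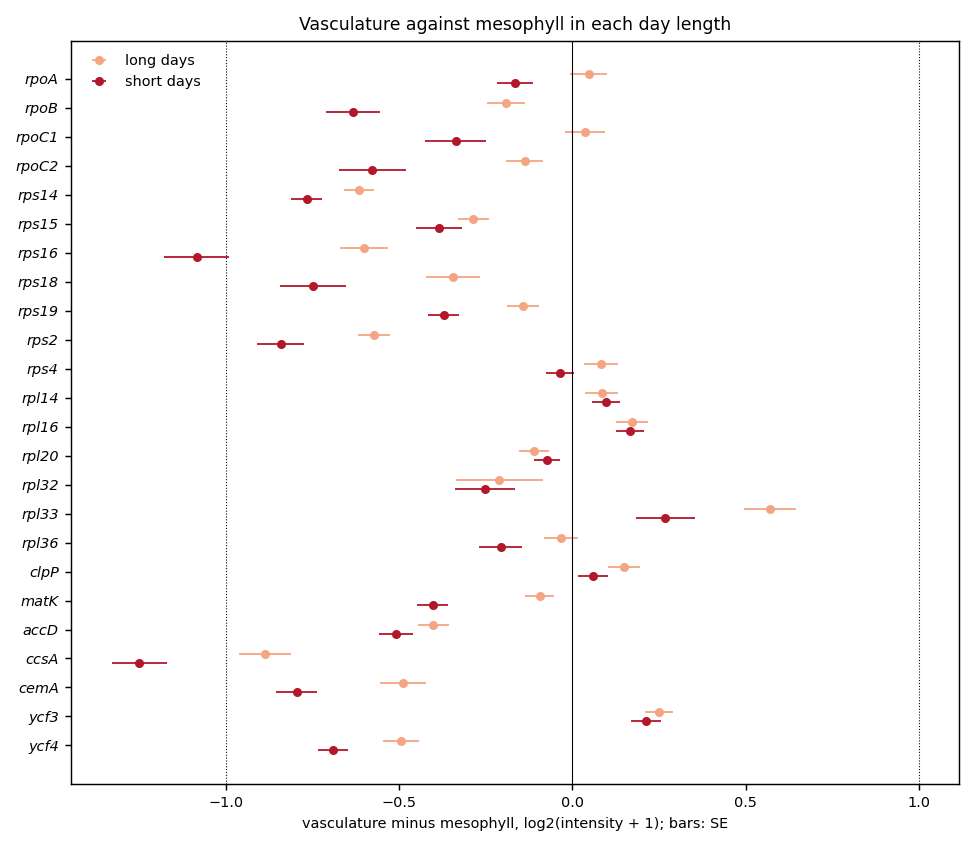
Vasculature minus mesophyll on the log2(intensity + 1) scale for each of the 24 genes in long and short days, with SE bars from the limma fit (12 arrays per group) and dotted lines at the minimum difference of 1. Only ccsA and rps16 in short days pass the dotted line, and rpl33, ycf3, rpl16, rpl14 and clpP lie above 0 in both day lengths.

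Neighbours in the plastid genome sometimes shared a difference and sometimes did not. Along the run rpoB, rpoC1, rpoC2 and rps2, the short day differences were -0.63, -0.34, -0.58 and -0.84. The run was less alike in long days, where rps2 was lower in veins at 6 of 6 times, rpoC2 at 5, rpoB at 4 and rpoC1 at 3. The adjacent pair ycf4 and cemA gave -0.69 and -0.80. By contrast, rpl33 lies beside rps18, which lies beside rpl20, and in short days the 3 gave 0.27, -0.75 and -0.07, while in long days they gave 0.57, -0.34 and -0.11. Beside each other lie also ycf3 and rps4, at 0.25 and 0.08 in long days, and rpl32 and ccsA, at -0.21 and -0.89. Of the 6 short day times, ycf3 was higher in veins at 6 and rps4 at 2, and ccsA was lower at 6 and rpl32 at 5. Neighbours were taken by position alone, without regard to strand, so they need not share a transcript. Differences between neighbours were not tested.

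Probe sets that list both copies of the inverted repeat cannot tell the copies apart, and those of matching copies held identical values. In veins against mesophyll rpl23 differed by -0.29 (long days) and -0.47 (short days), rps7 by -0.27 and -0.39, and rpl2 by -0.06 and -0.10. The large ycf2 gene, for a protein tied to import into the plastid, differed by -0.16 and -0.47, and ycf1, for another such protein, by 0.44 (adjusted p = 9.7e-07) and 0.11 (adjusted p = 0.24). For rps12, a gene whose parts lie apart in the genome and are joined by trans-splicing, 3 probe sets held 2 distinct readings. The 2 probe sets with identical values gave -0.17 and -0.25 and the other gave 0.07 and 0.21, so the readings differed in direction. Which part of the gene each reads was not examined.

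Plastid-encoded photosynthesis genes leaned to the same side by their medians. For the 39 such genes these were -0.30 in long days and -0.35 in short days, where those of all probe sets were 0. As lower in long day veins 3 passed the call, beside 12.8% of all probe sets, and in short day veins 5 did, beside 12.6%. The largest were ndhF, of the NADH dehydrogenase-like complex, at -1.62 ± 0.11 and -2.01 ± 0.06, psbM, of photosystem II, at -1.47 ± 0.09 and -1.73 ± 0.09, and ndhI at -1.03 ± 0.07 and -1.25 ± 0.05. The largest difference among the 24 genes described here, that of ccsA, was smaller than those of ndhF and psbM in both day lengths. The difference between the 2 sets was not tested.

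Nuclear-encoded partners were compared in the same way, beside 12.8% (long days) and 12.6% (short days) of all probe sets called lower in veins. Only 8 of 33 listed nuclear genes for plastid ribosomal proteins had a probe set of 1 gene, and 7 of the 8 passed the call as lower in veins in each day length, with medians of -1.27 and -1.41. RPL17 gave -2.05 ± 0.17 in long days and -2.54 ± 0.10 in short days. RPS6 gave -1.54 ± 0.07 and -1.41 ± 0.06, and RPL19B -1.40 ± 0.10 and -1.66 ± 0.10. Of 5 measured nuclear genes of the Clp protease, 2 passed as lower, CLPT2 at -1.77 ± 0.09 and -2.09 ± 0.13 and CLPP4 at -1.63 ± 0.07 and -1.48 ± 0.06. The others were lower at an adjusted p under 0.05 in both day lengths but under the minimum difference. CLPR3 gave -0.94 ± 0.06 and -0.91 ± 0.05, CLPT1 -0.83 ± 0.07 and -0.65 ± 0.07, and CLPC2 -0.28 ± 0.12 and -0.38 ± 0.10. Plastid clpP gave 0.15 and 0.06. RPOTMP, a nuclear phage-type RNA polymerase of mitochondria and plastids and the only 1 of 20 listed polymerase partners measured, was higher in veins at an adjusted p under 0.05 but under the minimum difference, at 0.54 ± 0.07 and 0.58 ± 0.06. The contrast between nuclear and plastid-encoded genes was not tested. The plastid-encoded genes described here were all bright, and whether brightness limits the size of a difference was not tested either.

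**Figure D3:**
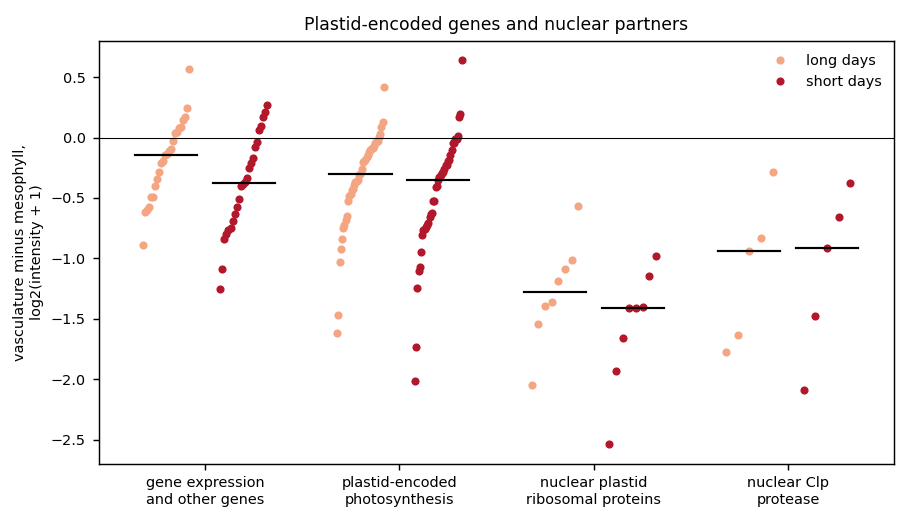
Vasculature minus mesophyll on the log2(intensity + 1) scale for the 24 plastid-encoded genes described here, 39 plastid-encoded photosynthesis genes, 8 nuclear genes for plastid ribosomal proteins and 5 nuclear Clp protease genes; each point is a gene and lines are medians. The medians in long and short days are -0.14 and -0.38 for the plastid-encoded genes of gene expression and other functions, and -1.27 and -1.41 for the nuclear ribosomal protein genes. Differences between the lists were not tested.

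Both isolated tissues were set against the same whole leaf arrays, so the following values share those arrays. Only the isolated tissues are described as passing through enzymes and sonication. Tissue and isolation therefore cannot be told apart in these contrasts. For mesophyll against whole leaf, none of the 24 genes passed the call in either day length, where 11.2% and 12.2% of all probe sets did; 6 in long days and 4 in short days had an unadjusted limma p under 0.05. At an adjusted p alone 6 were higher in long days, beside 20.3% of all probe sets, and 4 in short days, beside 24.1%. None was lower, where 40.1% and 42.2% of all probe sets were. Without the stray array the long day counts were again 6 and 0, beside 21.5% and 41.3%. The long day estimates were above 0 for all 24 genes, for 20 of them after quantile normalization, and for 20 without the stray array. Led by rpl33, which was higher in long day mesophyll by 0.59 ± 0.07 (adjusted p = 8.3e-07; 0.58 without the stray array), the set also held rpl32, at 0.97 ± 0.32 (adjusted p = 0.015), or 0.63 ± 0.14 (adjusted p = 0.00079) without the stray array. In short days the polymerase gene rpoB was higher in mesophyll by 0.24 ± 0.07 (adjusted p = 0.0097).

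For vasculature against whole leaf, rpl33 in long days was the only gene past the call as higher, beside 9.12% of all probe sets. The gene was above whole leaf at all 6 times in long day mesophyll as well as in long day veins. Its whole leaf arrays ran from 9.49 through 9.74 to 10.09 and all lay below the vein arrays, a 2.24-fold difference (1.16 ± 0.07, adjusted p = 3.6e-10; 1.15 without the stray array). In short days ccsA (-1.21 ± 0.04, adjusted p = 2.3e-14) and rps16 (-1.06 ± 0.06, adjusted p = 3.1e-11) passed as lower, beside 11.3% of all probe sets, and rps16 was under the minimum after quantile normalization (-0.88). In long days the same contrast gave -0.77 ± 0.13 for ccsA (adjusted p = 5e-05), or -0.89 ± 0.08 (adjusted p = 7.5e-08) without the stray array, and -0.23 ± 0.26 for rps16 (adjusted p = 0.45), or -0.51 ± 0.10 (adjusted p = 0.00028) without it. At an adjusted p alone, 7 genes were lower and 6 higher in long days, beside 33.3% and 30.3% of all probe sets, or 9 and 7 without the stray array, beside 33.8% and 30.6%. In short days 17 were lower and 4 higher, beside 35.5% and 35.6%.

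Whether the vein-to-mesophyll difference itself changed with day length was tested as an interaction on the 48 arrays of the isolated tissues. None of the 24 genes passed the minimum difference of 1, where 2.28% of all probe sets did, and 16 had an unadjusted limma p under 0.05. At an adjusted p under 0.05, 12 genes had a higher (less negative) difference in long days and none a lower one, beside 7.83% and 7.57% of all probe sets. They were all 4 polymerase genes, 4 of 7 small-subunit genes (rps2, rps16, rps18 and rps19), none of 6 large-subunit genes, and matK, ccsA, cemA and ycf4. The change was 0.44 ± 0.10 for rpoB (adjusted p = 0.0017), 0.44 ± 0.11 for rpoC2 (adjusted p = 0.0058), 0.48 ± 0.12 for rps16 (adjusted p = 0.0052) and 0.31 ± 0.06 for matK (adjusted p = 0.00027). With the day 9 arrays of short day mesophyll left out, the count fell to 3 (matK, rpoB and cemA, with matK at 0.24, adjusted p = 0.0054), beside 9.73% of all probe sets, and with the day 10 arrays left out it was 15, beside 10.8%. In 1 fit of all 72 arrays rps16 had an adjusted p of 0.18. Why the 2 days of short day mesophyll differ was not tested.

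Day length was then compared within each tissue. In vasculature 9 genes were higher in long days at an adjusted p under 0.05 and none lower, beside 12% and 16.5% of all probe sets, and none passed the minimum difference of 1, where 1.48% did, although 12 had an unadjusted limma p under 0.05. The vein arrays of rpoC2 lay between 10.67 and 11.10 in long days and between 10.34 and 10.62 in short days. They did not overlap, which held for 0.472% of all probe sets, and the gene was 1.31-fold higher in long days (0.39 ± 0.05, adjusted p = 2.3e-05). Its neighbours rpoB (0.36 ± 0.05, adjusted p = 0.00012), rpoC1 (0.22 ± 0.06, adjusted p = 0.0099) and rps2 (0.27 ± 0.04, adjusted p = 0.00011) were also higher. The other 5 were rps16 (0.46 ± 0.08, adjusted p = 0.00028), ccsA (0.28 ± 0.07, adjusted p = 0.0097), matK (0.22 ± 0.04, adjusted p = 0.00028), rps14 (0.16 ± 0.05, adjusted p = 0.016) and rpl36 (0.11 ± 0.04, adjusted p = 0.034). Of the 39 photosynthesis genes, 8 were higher and 3 lower in this comparison.

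In whole leaf the direction was the opposite. There 12 of 24 genes were lower in long days at an adjusted p under 0.05 and none higher, beside 19.9% and 17.9% of all probe sets, and 13 were lower without the stray array, beside 19.8%. The gene rpl33 ran from 9.49 through 9.74 to 10.09 in long days and from 10.09 through 10.37 to 10.71 in short days. Its groups overlapped only at their ends, and it was 1.53-fold lower in long days (-0.61 ± 0.06, adjusted p = 1.9e-06), with -0.60 ± 0.07 (adjusted p = 3.9e-06) without the stray array. Also lower were rps18, at -0.43 ± 0.09 (adjusted p = 0.0016), cemA, at -0.34 ± 0.07 (adjusted p = 0.0017), and rps4, at -0.33 ± 0.09 (adjusted p = 0.0094), or at -0.34, -0.28 and -0.24 without the stray array. The arrays of cemA, up to 12.34 in long days and from 12.36 in short days, did not overlap, which among the 24 genes held for cemA alone and held for 0.6% of all probe sets.

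The gene rpl32 alone passed the minimum difference in whole leaf, beside 0.889% of all probe sets lower, and it rested on the stray array. Long day whole leaf arrays of rpl32 ran from 6.86 through 10.38 to 10.90 and short day arrays from 10.77 through 11.18 to 11.32. The difference was -1.18 ± 0.32 (adjusted p = 0.0085), or -0.84 ± 0.13 (adjusted p = 1e-04) without that array, which is under the minimum. In long day whole leaf at ZT16, rpl32 also read 8.77 on day 9 and 9.91 on day 10, below all short day arrays.

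Mesophyll had a median day length difference of -0.09, beside 0.11 in vasculature and -0.18 in whole leaf. After quantile normalization that of vasculature was the smallest in size, at 0.06 against -0.07 in mesophyll and -0.13 in whole leaf. In mesophyll 3 genes were lower in long days at an adjusted p under 0.05 and none higher, beside 10.7% and 7.38% of all probe sets. None passed the minimum difference, where 1.22% did, and 9 had an unadjusted limma p under 0.05. The 3 genes were rps19 (-0.23 ± 0.05, adjusted p = 0.0033), rpoA (-0.19 ± 0.05, adjusted p = 0.02) and cemA (-0.18 ± 0.06, adjusted p = 0.04). The count was 0 without the day 9 arrays of short day mesophyll and 8 without the day 10 arrays.

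**Figure D4:**
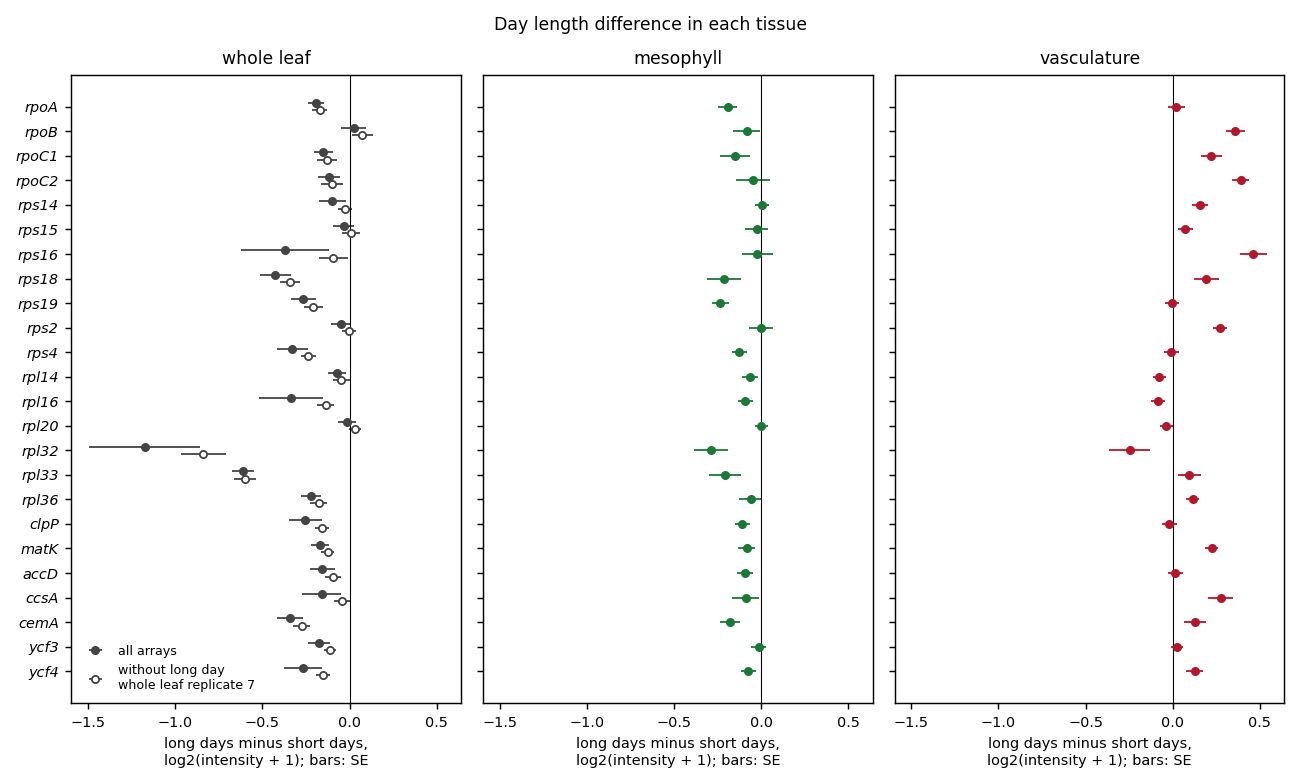
Long days minus short days on the log2(intensity + 1) scale for each of the 24 genes in whole leaf, mesophyll and vasculature, with SE bars from the limma fit; open points leave out the day 10 array of ZT0 in long day whole leaf. Polymerase genes rpoB, rpoC1 and rpoC2 lie above 0 in vasculature (0.22 to 0.39), and rpl32 in whole leaf moves from -1.18 to -0.84 without the stray array.

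By time of day, rps16 in vasculature at ZT16 was the only gene past the call in the isolated tissues, where 2.89% of all vein tests (3.01% as higher at ZT16) and 3.02% of all mesophyll tests passed. In mesophyll 0 to 3 of the 24 genes per time had an unadjusted limma p under 0.05. At ZT16, the end of the light in long days and 8 h into the dark in short days, rps16 read 9.5 and 9.81 in long day veins and 8.30 and 8.82 in short day veins. The difference was 1.09 ± 0.19 (adjusted p = 0.00077), a 2.13-fold higher level in long days. At ZT12 it was 0.95 ± 0.19 (adjusted p = 0.0032), under the minimum difference, and at ZT8 it was 0.02. After quantile normalization the ZT16 difference was 0.98 (adjusted p = 0.0012), also under the minimum. In whole leaf no gene passed with all arrays, beside 4.86% of all tests, although 1 to 19 genes per time had an unadjusted limma p under 0.05, while without the stray array 3 tests passed, beside 4.88%: rps16 at ZT8 (-1.19 ± 0.20, adjusted p = 0.00066) and rpl32 at ZT12 (-1.07 ± 0.30, adjusted p = 0.018) and ZT16 (-1.65 ± 0.30, adjusted p = 0.00071).

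A daily rhythm was tested as a cosine wave with a period of 24 h, with a limma F test and an adjusted p under 0.03 as the call. In short day whole leaf 4 of the 24 genes passed, beside 34.7% of all probe sets, and all 4 peaked in the light. The widest was rps16, which on days 9 and 10 read 10.10 and 10.01 at ZT0, 10.40 and 10.38 at ZT4, 10.24 and 10.56 at ZT8, 9.40 and 9.22 at ZT12, 9.38 and 9.40 at ZT16, and 9.82 and 9.77 at ZT20. Levels were 10.01 or higher from ZT0, the start of the light, to ZT8, its end, and 9.82 or lower from ZT12 to ZT20. Both ZT0 readings, taken as the dark ended, already lay above those of ZT20. The fitted wave of rps16 had an amplitude (mean to peak) of 0.56 ± 0.09 and a peak at 3.7 h (adjusted p = 0.0013). The other 3 were rpoB (amplitude 0.33 ± 0.04, peak 3.6 h, adjusted p = 2e-04), rpoC1 (0.23 ± 0.04, 4.1 h, adjusted p = 0.0034) and rpoC2 (0.20 ± 0.03, 5.8 h, adjusted p = 0.0016). None of the 39 photosynthesis genes passed there, and 5 of the 8 nuclear genes for plastid ribosomal proteins did.

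In long day mesophyll 3 genes passed, beside 13.3% of all probe sets, and their fitted peaks all fell in the dark. The rps18 transcript was lowest at ZT8, at 10.62 and 10.79, and highest at ZT20, at 11.26 and 11.59, with an amplitude of 0.32 ± 0.06 and a peak at 19.7 h (adjusted p = 0.0092). By the mean of both days the rpoB transcript was lowest at ZT12, at 10.24 and 10.07, and highest at ZT16, at 10.77 and 10.95, although day 9 alone was lowest at ZT8 and highest at ZT0, with a fitted amplitude of 0.35 ± 0.08 and a peak at 21.5 h (adjusted p = 0.023). The rpoC1 transcript fell to 10.35 and 10.21 at ZT12, with an amplitude of 0.28 ± 0.06 and a peak at 22.1 h (adjusted p = 0.022). With the day as a term in the fit, rps18 alone passed, at an adjusted p of 0.0045, and rpoB and rpoC1 had adjusted p-values of 0.034 and 0.032. With time as a factor in place of the wave, rps18 had an adjusted p of 0.036.

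No gene passed the call in the other 4 groups by this limma test. Of all probe sets, 9.52% passed it in long day whole leaf, 3.16% in long day vasculature, 12% in short day mesophyll and 14.5% in short day vasculature. In the same order, 1, 2, 1 and 1 of the 24 genes had an unadjusted p under 0.05. Without the stray array rps18 passed in long day whole leaf, beside 10.5% of all probe sets, with a peak at 20.5 h (adjusted p = 0.011). With the day as a term rpoB passed in short day mesophyll, where the fit without that term put its peak at 1.8 h and its amplitude at 0.22 (adjusted p = 0.23).

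Differences in rhythm between groups were tested as an interaction on the cosine wave, and their size is the amplitude of the difference between the 2 waves. Between long and short days in vasculature, rps16 was the only gene past an adjusted p of 0.05, beside 5.24% of all probe sets, at 0.57 (adjusted p = 0.028). Its fitted peak was at 13.6 h in long day veins (amplitude 0.33) and at 5.4 h in short day veins (amplitude 0.32), and neither rhythm passed the call alone (adjusted p = 0.11 and 0.047). Between veins and mesophyll in long days rps16 (0.48, adjusted p = 0.042) and rpoC1 (0.32, adjusted p = 0.046) passed, beside 7.14% of all probe sets. Neither passed with no offset (adjusted p = 0.05 and 0.074), rps16 did not pass after quantile normalization (adjusted p = 0.051), and rpoC1 did not pass with the replicate block (adjusted p = 0.065). The fitted peaks of rpoC1 were at 16 h in veins and 22.1 h in mesophyll, and those of rps16 at 13.6 h and 20.4 h.

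The other 3 rhythm comparisons gave no gene with all arrays, beside 6.62% of all probe sets for whole leaf between day lengths, 2.31% for mesophyll between day lengths and 6.13% for veins against mesophyll in short days; by unadjusted limma p under 0.05 the counts were 2, 1 and 0 genes. The whole leaf comparison gave 3 genes without the stray array, beside 7.8%: rps16 at 0.71 (adjusted p = 0.015), rpoB at 0.34 (adjusted p = 0.042) and matK at 0.21 (adjusted p = 0.042). In whole leaf rpoB was highest at ZT4 in short days, at 10.79 and 10.72, and fell to 10.03 and 9.99 at ZT16. In long days it read 10.37 and 10.68 at ZT16, at the end of the longer light period.

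**Figure D5:**
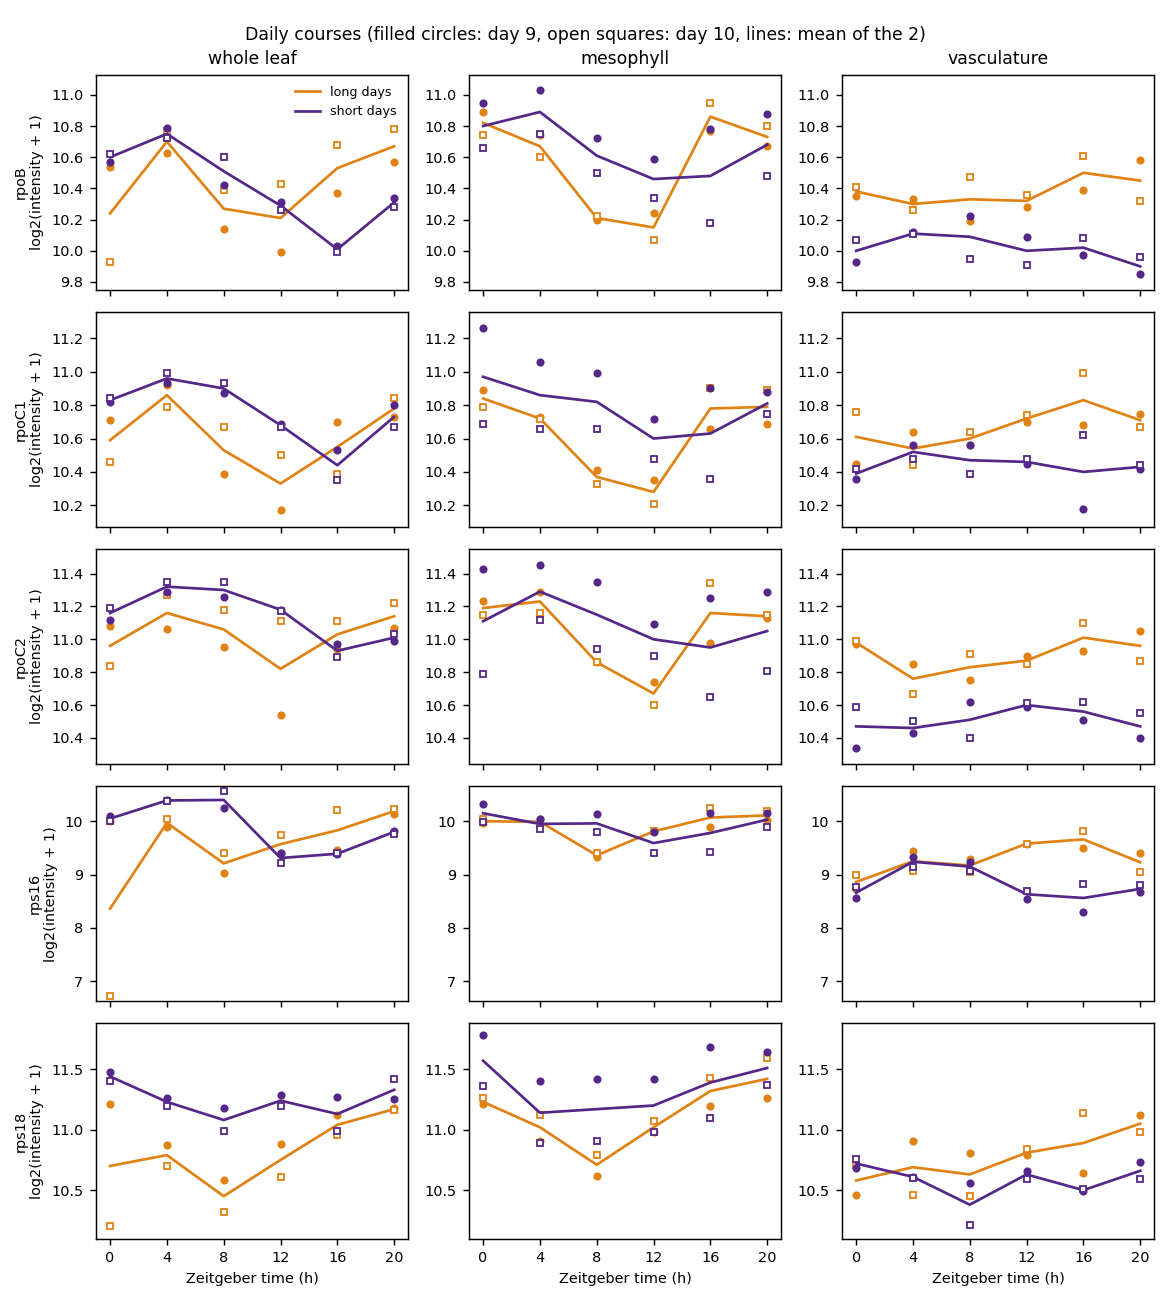
Daily courses of rpoB, rpoC1, rpoC2, rps16 and rps18 on the log2(intensity + 1) scale against Zeitgeber time in hours, in whole leaf, mesophyll and vasculature; points are single arrays of day 9 (filled) and day 10 (open) and lines join the means of the 2. Short day whole leaf rps16 stays at 10.01 or higher up to ZT8 and at 9.82 or lower from ZT12, while the peak of rps18 in long day mesophyll lies at ZT20 on both days.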

How the data were processed

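RNA was labelled for Affymetrix whole-transcript arrays. The authors deposited linear intensities computed with GCRMA, a background adjustment and normalization named in the submitters' processing notes without a version; a shift shared by most transcripts would be lost in it. These deposited intensities were taken to log2(intensity + 1) here, the scale of all differences. Precision is limited by the number of arrays.

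Probe sets over an intensity of 2.77 (the 40th percentile) in at least 6 of 72 arrays were tested, 21827 of 28583, including those of all 24 genes and the 12 repeat-copy probe sets. Names came from the platform table and RefSeq's TAIR10.1 table, used only for names and neighbours. limma 3.58.1 in R 4.3.3 fitted the arrays of the groups compared, with 1 mean per group and time, and contrasts averaged the times. Benjamini-Hochberg adjustment ran over all probe sets tested. Rhythms were tested with a moderated F test of a cosine and a sine of 24 h. Python 3.11.15, pandas 2.3.3, numpy 2.4.6 and matplotlib 3.10.9 drew the figures. The fits were tested on simulated data.

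All 24 genes were accounted for by class. Named were all genes past a call and the largest and smallest difference of each class, all rhythmic genes, and up to 3 genes of each other list past the call by size; further genes were named after their values were seen, for their role or neighbours. The rule's ranking of levels within a class was left out, since probe sets cannot be ranked against each other. Genes and lists were chosen with earlier results of these data known. Other scalings, offsets, filters, thresholds, a replicate block, 1 fit of all arrays and fits without single arrays were tried; leaving out a day of short day mesophyll and a term for the day were added after seeing the data.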

Additional observations from a re-analysis of the deposited data

Results flagged for a closer look

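A test of the difference between groups singled out 15 results. In 12 of them the vein-to-mesophyll difference was less negative, or higher, in long days than in short days: 0.44 for rpoB, 0.44 for rpoC2, 0.37 for rpoC1, 0.21 for rpoA, 0.48 for rps16, 0.41 for rps18, 0.27 for rps2, 0.23 for rps19, 0.31 for matK, 0.36 for ccsA, 0.31 for cemA and 0.20 for ycf4, all on the log2 scale. Without the day 9 arrays of short day mesophyll all 12 kept their sign, at 0.12 to 0.30, and 3 kept an adjusted p under 0.05. In short day mesophyll itself 7 genes were lower on day 10 than on day 9, from -0.29 for rps15 to -0.46 for rps18.

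The other 3 were differences between rhythms. For rps16 the waves differed by 0.57 between long and short day vasculature and by 0.48 between vasculature and mesophyll in long days, and for rpoC1 they differed by 0.32 between those tissues. No group was small enough for the check of single stray samples used for groups of 4 to 10.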

How the results depend on the processing

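No gene's difference past a call changed direction under the settings tried. Among smaller differences signs did move; for example, genes above 0 for long day veins against mesophyll went from 8 to 6 after quantile normalization or median centring, and those for long day mesophyll against whole leaf from 24 to 20 after quantile normalization. Quantile normalization left 1 of 2 calls (ccsA) in short day veins against mesophyll and against whole leaf, since rps16 fell under the minimum difference (-0.84 and -0.88). It also gave 1 lower gene (ycf4) for short day mesophyll against whole leaf, 11 lower for long day veins against whole leaf and 3 lower for long against short day veins, and left 1 rhythm difference (rpoC1) between veins and mesophyll in long days. Centring arrays on their median gave 1 call (rpl32) for long day mesophyll against whole leaf and 5 lower genes for day length in mesophyll. An offset of 4 gave 5 lower genes for day length in mesophyll, 1 lower for day length in veins and 7 rhythms in short day whole leaf. No offset left 1 rhythm in long day mesophyll and 0 rhythm differences between veins and mesophyll in long days. A minimum difference of 0.5 gave 5 calls in long days and 10 in short days for veins against mesophyll, 4 and 8 for veins against whole leaf, 2 for long day mesophyll against whole leaf, and 2 for day length in whole leaf. With 1 fit of all 72 arrays 12 genes were higher in long day mesophyll than in whole leaf.

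Without the day 9 arrays of short day mesophyll, veins against mesophyll kept 1 call (ccsA), mesophyll against whole leaf had 2 genes higher and 4 lower, day length in mesophyll had 0 lower, and 3 interactions remained. Without its day 10 arrays the corresponding counts were 2 genes higher in veins, 12 higher in mesophyll than in whole leaf and 8 lower for day length. Without long day whole leaf replicate 7 (the ZT0 array of day 10), day length in whole leaf gave 0 calls, day length by time 3, the long day whole leaf rhythm 1 and the rhythm difference in whole leaf 3. A term for the day gave 1 rhythm in long day mesophyll and 1 in short day mesophyll. The arrays' numbers (shared day and time) were not taken to pair them, since correlations of same-numbered deviations ran from -0.22 to 0.15. With a replicate block, 1 rhythm difference between veins and mesophyll in long days remained (rps16); in day length in whole leaf rpoC1 and ycf3, and in veins rpl36, had adjusted p-values of 0.056, 0.055 and 0.089, and no other count moved by over 1.5 times. The cause of these changes was not tested. GCRMA scaling, the small number of nuclear partners with a probe set and 1 array per time and day limit these values.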

Other observations

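Among the probe sets that list both copies of the inverted repeat, ycf2 behaved unlike rps12 and rps7 between day lengths in vasculature. It was higher in long days by 0.34 ± 0.04 (adjusted p = 1.4e-05), whereas rps7 gave 0.08 ± 0.04 (adjusted p = 0.15). The 3 rps12 probe sets gave -0.02, -0.19 and -0.02, and the 2 at -0.02 held identical values. In whole leaf ycf1 was lower in long days by 0.47 ± 0.10 (a difference of -0.47, adjusted p = 0.0014) and in mesophyll it gave -0.32 ± 0.09 (adjusted p = 0.021). The vein-to-mesophyll difference changed with day length for ycf1 (0.33, adjusted p = 0.024), ycf2 (0.31, adjusted p = 0.0098) and rpl23 (0.18, adjusted p = 0.017). The 2 copies of each gene cannot be told apart, and differences between these genes were not tested.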
